A study of Mus musculus with 6 samples.

Results

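The 9 genes described here mark position within the retina: Tbx5, Tbx2, Tbx3, Vax2, Nr2f1, Nr2f2, Efnb2, Foxd1 and Rax. They were taken by symbol from the 32285 genes of the count tables, and all 9 were found. Their UMIs (unique molecular identifiers, each 1 captured RNA molecule) were followed over Muller glia nuclei, cones and ganglion cell nuclei of rd10 mice, a strain (B6.CXB1-Pde6b-rd10/J) whose Pde6b mutation causes rod and then cone loss. Every mouse carried this mutation, so no retina without degeneration was compared. Saline control retinas (replicates 1, 2 and 6) or retinas given 20 ng of recombinant IL-27 (replicates 4, 5 and 10) were injected intravitreally at P18 and frozen at P20, and nuclei were isolated for droplet sequencing, with 3 libraries in each group. How many eyes or mice entered a library is not given in the sources used here, and p-values therefore measure the spread between these libraries.

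The dorsal retina is set up by T-box transcription factors, of which Tbx5, Tbx2 and Tbx3 are induced by BMP signalling, and the ventral retina by the homeodomain factor Vax2. These factors are known to repress each other's territory and to set opposing gradients of B-type ephrins and their Eph receptors, which guide ganglion cell axons to their targets. In mice the gradients also run through the cones, where M opsin is highest dorsally and S opsin ventrally. Nr2f1 and Nr2f2 are orphan nuclear receptors that shape regional identity in the optic cup, Foxd1 marks the temporal retina, and Rax is the homeodomain factor of the early eye field that is kept in Muller glia and photoreceptors.

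Efnb2, the dorsal ephrin ligand, and Nr2f2 had the highest odds ratio of being found in the same Muller nucleus, so the 250 bases before their RefSeq start sites are shown (GRCm38.p6, 5′ to 3′ along the minus strand of each gene). The windows are chr8:8661243-8661492 for Efnb2 and chr7:70366747-70366996 for Nr2f2, and capitals mark the homeodomain core TAAT, read on both strands.
Efnb2: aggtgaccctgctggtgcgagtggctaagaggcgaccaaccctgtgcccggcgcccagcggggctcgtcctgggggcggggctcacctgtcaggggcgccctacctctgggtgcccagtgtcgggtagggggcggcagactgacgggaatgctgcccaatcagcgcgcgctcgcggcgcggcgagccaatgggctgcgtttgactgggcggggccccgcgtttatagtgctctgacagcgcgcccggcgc
Nr2f2: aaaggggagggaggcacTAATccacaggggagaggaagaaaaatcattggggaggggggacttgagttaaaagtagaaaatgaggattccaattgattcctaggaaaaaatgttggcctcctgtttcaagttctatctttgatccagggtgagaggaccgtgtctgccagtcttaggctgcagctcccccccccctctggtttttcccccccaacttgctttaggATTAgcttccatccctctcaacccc
The Nr2f2 window held 2 TAAT cores, starting 233 and 25 bases before the start site, and the Efnb2 window held 0. TAAT was found in 54.9% of 32851 mouse promoters of this length, so its presence is common. The T-box core AGGTGT (in 11.8% of promoters) and the nuclear receptor core AGGTCA (in 14% of promoters) were in neither window on either strand. The GC content was 72% for Efnb2 and 50% for Nr2f2.

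By GENCODE M21 on GRCm38, Tbx5 (ENSMUSG00000018263) lies at chr5:119832668-119885219 on the plus strand, 147943 bases from Tbx3 (ENSMUSG00000018604, chr5:119670669-119684724). Tbx2 (ENSMUSG00000000093) lies at chr11:85832551-85841948 and Vax2 (ENSMUSG00000034777) at chr6:83711264-83738313, both on the plus strand. Efnb2 (ENSMUSG00000001300, chr8:8617434-8661242), Nr2f2 (ENSMUSG00000030551, chr7:70351944-70366735) and Nr2f1 (ENSMUSG00000069171, chr13:78188973-78199757) lie on the minus strand, and Foxd1 (ENSMUSG00000078302, chr13:98354242-98359305) on the plus strand. UMIs here cover whole genes. Antisense genes counted in the same tables overlap Tbx3 (Tbx3os1, 697 bases), Vax2 (Vax2os, 938 bases), Nr2f1 (A830082K12Rik, 1741 bases), Nr2f2 (B130024G19Rik, 1826 bases) and Rax (Raxos1, 2250 bases). The strand setting of the counting is not given in the sources used here, so reads in these overlaps cannot be assigned with certainty. Nr2f1 and Nr2f2 transcripts share an exact run of 59 bases and the T-box pairs at most 20.

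The 6 libraries held 8968 to 9965 barcodes and 36678332 to 48260748 UMIs, and 52229 nuclei were kept after filters on depth and removal of 3976 doublets. Pairs of libraries shared 18 to 30 barcodes. Muller nuclei, defined as nuclei with at least 2 UMIs of the glial transporter Abca8a, numbered 4420, cones 3333 and ganglion cell nuclei 2180, with medians of 4545.5, 2551 and 9865 UMIs per nucleus. All 8 Muller markers were found in at least 10% of the Muller nuclei, and all 7 cone markers in the cones. Of 9 ganglion cell markers, 8 were found in the ganglion cell nuclei. Abca8a is itself 1 of the Muller markers, and the cone and ganglion cell clusters were named from their markers. These counts therefore describe the classes and do not test them. In Muller nuclei, 5 of 8 bipolar, 3 of 7 rod and 2 of 7 endothelial markers also reached 10%. Of the Muller nuclei, 4061 (91.9%) lay in the main Muller-like clusters and 86 (1.95%) in a Muller-like cluster called saline-enriched here. Of the 665 nuclei of that cluster, 549 came from saline libraries. It held 229, 220 and 100 nuclei in saline replicates 1, 2 and 6, and 12, 6 and 98 in IL-27 replicates 4, 5 and 10. IL-27 replicate 10 was thus close to saline replicate 6. In saline replicate 6 the share inside Muller-like clusters, the saline-enriched one included, was 87.8%, against 93.9% to 96.6% in the other libraries. Summed bipolar markers were at 766 to 2649 CPM (counts per 1000000 UMIs of the sum) in the saline and 668 to 914 CPM in the IL-27 Muller nuclei, and their part in the results below was not tested.

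Rax and Tbx2 were the most widely detected members in Muller glia. Rax had a UMI in 45.9%, 45.9% and 38.6% of Muller nuclei in saline replicates 1, 2 and 6 and in 39.5%, 42.5% and 39.9% in IL-27 replicates 4, 5 and 10. Tbx2 had one in 43.3%, 39.0% and 35.2% of saline and 34.2%, 42.0% and 36.7% of IL-27 Muller nuclei. For both genes the groups overlapped, and saline replicate 6 was the lowest saline library. At 1000 UMIs per nucleus Rax was seen in 13.0% and Tbx2 in 10.2% of Muller nuclei, against 1.84% and 0.884% of microglia, which should lack both genes and had a median of 2098 UMIs before thinning.

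The position markers themselves were sparse in Muller glia. Tbx5 was detected in 4.96%, 5.44% and 4.29% of saline and 3.66%, 3.66% and 5.29% of IL-27 Muller nuclei. Vax2 was detected in 10.5%, 9.84% and 11.1% of saline and 6.92%, 9.81% and 9.07% of IL-27 Muller nuclei. Tbx5 had 3 nuclei with a UMI among 1563 microglia (0.192%), and Vax2 18 (1.15%), so both shares in Muller glia stood above this background. After thinning, Tbx5 was in 0.954% of Muller nuclei (95% exact binomial interval 0.689 to 1.29, counting error only) and in 0 of 1471 microglia, for which the interval reaches up to 0.2505%. Vax2 was then in 1.93% of Muller nuclei (1.55 to 2.38) against 0.272% of microglia (0.0741 to 0.695).

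Efnb2 was detected in 20.7%, 23.7% and 16.0% of saline and 21.6%, 25.8% and 20.2% of IL-27 Muller nuclei. Nr2f1 was detected in 21.5%, 22.8% and 18.3% of saline and 16.8%, 19.8% and 13.6% of IL-27 Muller nuclei. Nr2f2 reached 6.24% to 9.04%, Foxd1 1.70% to 4.30% and Tbx3 1.22% to 3.78% over the 6 libraries. The groups overlapped for each of these 5 genes.

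**Figure D1:**
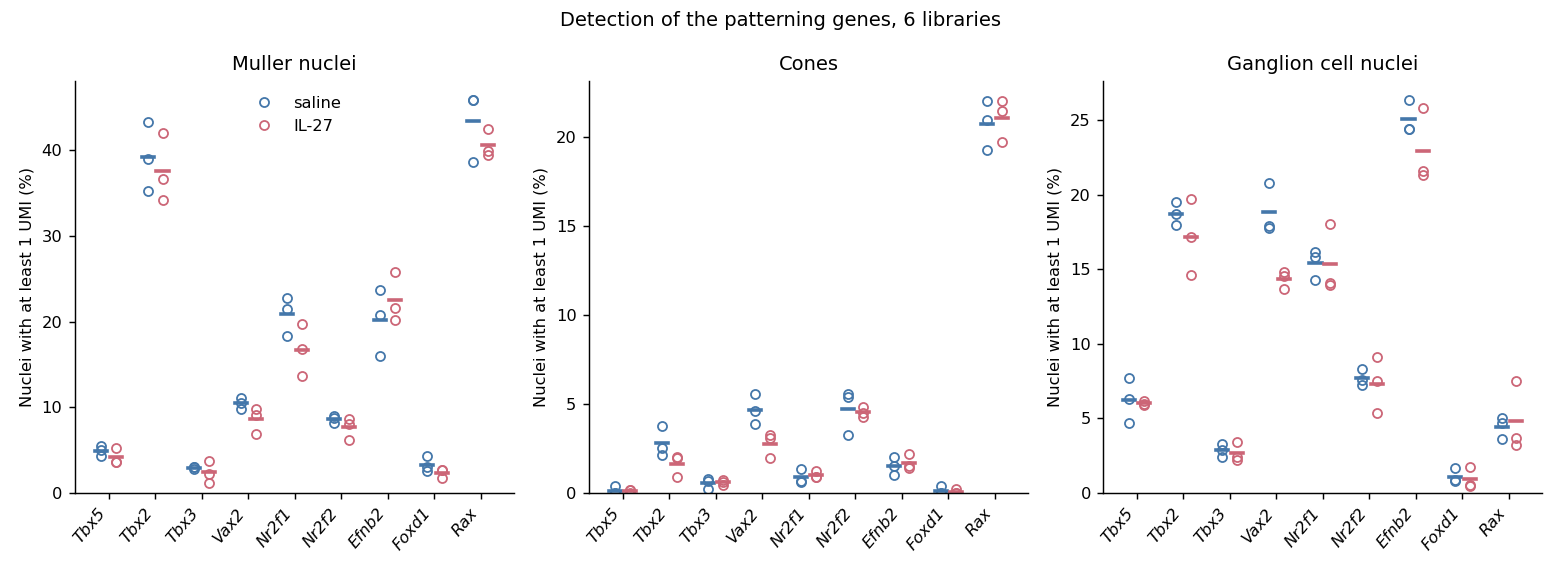
Share of nuclei with at least 1 UMI (%, y axis, scaled per panel) for each patterning gene (x axis) in Muller nuclei, cones and ganglion cell nuclei; circles are libraries and lines group means, with 3 libraries each. Rax and Tbx2 lead in Muller nuclei, Rax alone reaches 20.8% in cones, and the Vax2 circles of saline lie above those of IL-27 in each panel.

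Cones held Rax and little else of the set. Rax was detected in 19.2%, 22.0% and 21.0% of saline cones and 19.7%, 21.4% and 22.0% of IL-27 cones. Nr2f2 (4.65% of all cones) and Vax2 (3.63%) followed. Tbx5 was found in 4 and Foxd1 in 3 of 3333 cones. At 1000 UMIs, Rax (8.66%), Nr2f2 (2.13%) and Vax2 (1.40%) exceeded microglia, whereas Tbx2 (0.732%) and Efnb2 (0.518%) did not and are read as background.

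In ganglion cell nuclei the members most often detected at full depth were Efnb2, Tbx2, Vax2 and Nr2f1. Efnb2 was detected in 26.3%, 24.4% and 24.4% of saline and 25.8%, 21.3% and 21.6% of IL-27 ganglion cell nuclei. Tbx2 was detected in 18.0%, 19.5% and 18.7% of saline and 14.6%, 19.7% and 17.2% of IL-27 ganglion cell nuclei. Nr2f1 was detected in 14.3%, 16.2% and 15.8% of saline and 13.9%, 18.1% and 14.1% of IL-27 ganglion cell nuclei. Tbx5 reached 7.68%, 6.27% and 4.68% in saline and 5.94%, 5.93% and 6.17% in IL-27. These nuclei were the deepest of the 3 classes, and at 1000 UMIs the shares came down to 4.23% for Efnb2, 1.98% for Nr2f1, 1.93% for Vax2, 1.88% for Tbx2 and 0.643% for Tbx5, so that the order of the middle 3 differed from that at full depth. Rax (0.643% at 1000 UMIs) and Foxd1 (0.0459%) were at or below microglia here and are read as background.

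Set against the other classes of the retina, the members fell into different orders of level, given as CPM of the sum of each class (mean ± SD, n = 6 libraries) and compared only within a gene. Tbx5 had its highest mean in the saline-enriched cluster (17.2 ± 20.2 CPM), with 0 to 57.2 CPM over libraries. It was at 10.3 ± 1.95 CPM in Muller nuclei, 7.69 ± 1.09 in amacrine nuclei and 6.72 ± 0.887 in ganglion cell nuclei, and these neighbours overlapped. It was at 0 UMIs in all 293 astrocytes, a floor of 3 counts that allows up to 1.02% of nuclei with a UMI. Tbx3 stood at 66.2 ± 18.6 CPM in astrocytes, 50.2 ± 17.8 in vascular nuclei and 22.4 ± 2.42 in amacrine nuclei, the last with no overlap with the 5.91 ± 1.90 CPM of Muller nuclei. Tbx2 was at 113 ± 26.2 CPM in astrocytes and 106 ± 11.5 in Muller nuclei, with overlapping ranges.

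Vax2 was widespread, at 47.5 ± 16.9 CPM in astrocytes, 37.4 ± 7.86 in rods and 22.2 ± 1.499 in Muller nuclei. Nr2f2 was highest in vascular nuclei (160 ± 46.4 CPM), and Nr2f1 and Efnb2 in the saline-enriched cluster (160 ± 58.4 and 255 ± 184 CPM). That cluster held only 12 and 6 nuclei in IL-27 replicates 4 and 5, and these gave its highest Efnb2 values (601 and 315 CPM, against 105 to 195 CPM in the other libraries). Efnb2 was at 78.7 ± 19.2 CPM in Muller nuclei. Foxd1 was at 6.08 ± 1.65 CPM in Muller nuclei, with no overlap with the 1.21 ± 0.921 CPM of rods. Its means were higher, with wide ranges, in vascular nuclei (15.4 ± 29.9 CPM) and the saline-enriched cluster (10.6 ± 9.94 CPM). Rax was highest in the saline-enriched cluster (157 ± 33.2 CPM), whose range overlapped that of Muller nuclei (131 ± 12.1 CPM). It was at 106 ± 35.6 CPM in astrocytes, 89.4 ± 6.51 in cones and 76.8 ± 5.99 in rods.

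**Figure D2:**
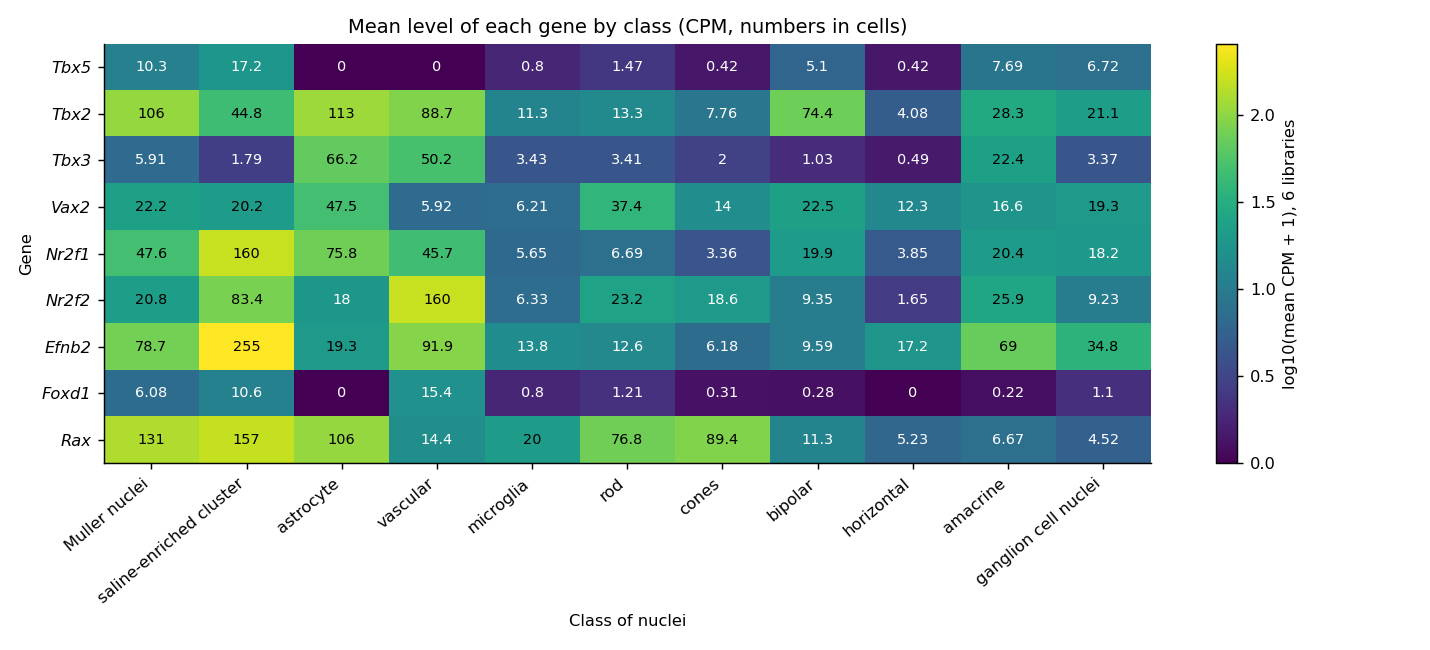
Mean CPM over 6 libraries of each patterning gene (rows) in each class of nuclei (columns), with colour as log10(mean CPM + 1). Rax is bright in glia and photoreceptors, Tbx3 in astrocytes and vascular nuclei, and Tbx5 is at 0 in astrocytes and vascular nuclei.

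Within single Muller nuclei, Tbx5, Efnb2 and Nr2f2 were found together more often than expected and with Vax2 less often. For every pair, the nuclei with both genes were set against the number expected from the 2 shares within 10 bins of total UMIs in the same library, and the odds ratio pooled over those strata was taken as a description with no p, since nuclei of a library share their source. Tbx5 and Vax2 were both seen in 4 Muller nuclei, where 20.4 were expected, an odds ratio of 0.16 that was below 1 in all 6 libraries. The counts were 2, 0 and 1 in saline and 0, 0 and 1 in IL-27.

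Vax2 was likewise kept apart from Efnb2. Both were seen in 6, 1 and 7 saline and 3, 5 and 1 IL-27 Muller nuclei, 23 in all against 92.4 expected, with an odds ratio of 0.17 (0.045 to 0.31 over libraries). Vax2 with Nr2f2 gave 11 nuclei against 38.1 expected (odds ratio 0.22), and Vax2 with Tbx3 gave 6 against 13.6 (0.36). These 4 pairs, Tbx5 with Vax2 included, were the ones with an odds ratio below 1 in all 6 libraries among the 35 pairs with at least 5 expected nuclei. Among nuclei that also lay in Muller-like clusters, the saline-enriched one included, Vax2 with Tbx3 was below 1 in 5 of 6 libraries. The other 3 pairs stayed below 1 in 6. Co-detection without the saline-enriched cluster was not tested.

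Above 1 in all 6 libraries were 5 pairs, and all 5 joined Efnb2 or Tbx5 to another member. Nr2f2 and Efnb2 were seen together in 37, 29 and 30 saline and 35, 32 and 17 IL-27 Muller nuclei, 180 in all against 80.1 expected, with an odds ratio of 4.19 (3.09 to 5.33). Tbx5 and Efnb2 shared 95 nuclei against 44.5 expected (3.49), and Tbx5 and Nr2f2 shared 40 against 17.6 (2.83). Tbx3 with Efnb2 (2.26) and Efnb2 with Foxd1 (2.08) completed the group. With every nucleus thinned to 1000 UMIs, the 23 nuclei with both Nr2f2 and Efnb2 still stood against 7.43 expected, above 1 in 6 libraries. Vax2 and Efnb2 then shared 1 nucleus against 6.15 expected, and the other 7 of these 9 pairs had under 5 expected nuclei.

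Among the other 26 pairs with at least 5 expected nuclei, none was on 1 side of 1 in all 6 libraries. The highest was Tbx5 with Tbx3, at 14 nuclei against 5.86 expected (odds ratio 2.76, above 1 in 5 of 6 libraries). Tbx5 with Foxd1 (2.02), Nr2f2 with Foxd1 (1.99) and Tbx3 with Nr2f2 (1.83) were above 1 in 4, 5 and 5 of 6 libraries. Nr2f1 and Nr2f2, the related nuclear receptors, were seen together in 75 Muller nuclei against 74.0 expected (odds ratio 1.02), and Nr2f1 and Efnb2 in 167 against 183 (0.86). At 1000 UMIs this last pair shared 7 nuclei against 14.9 expected, below 1 in 6 libraries. Rax gave odds ratios of 1.02 to 1.24 with the other 8 members. Tbx2 with Tbx5 was at 1.10 and with Vax2 at 0.84.

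**Figure D3:**
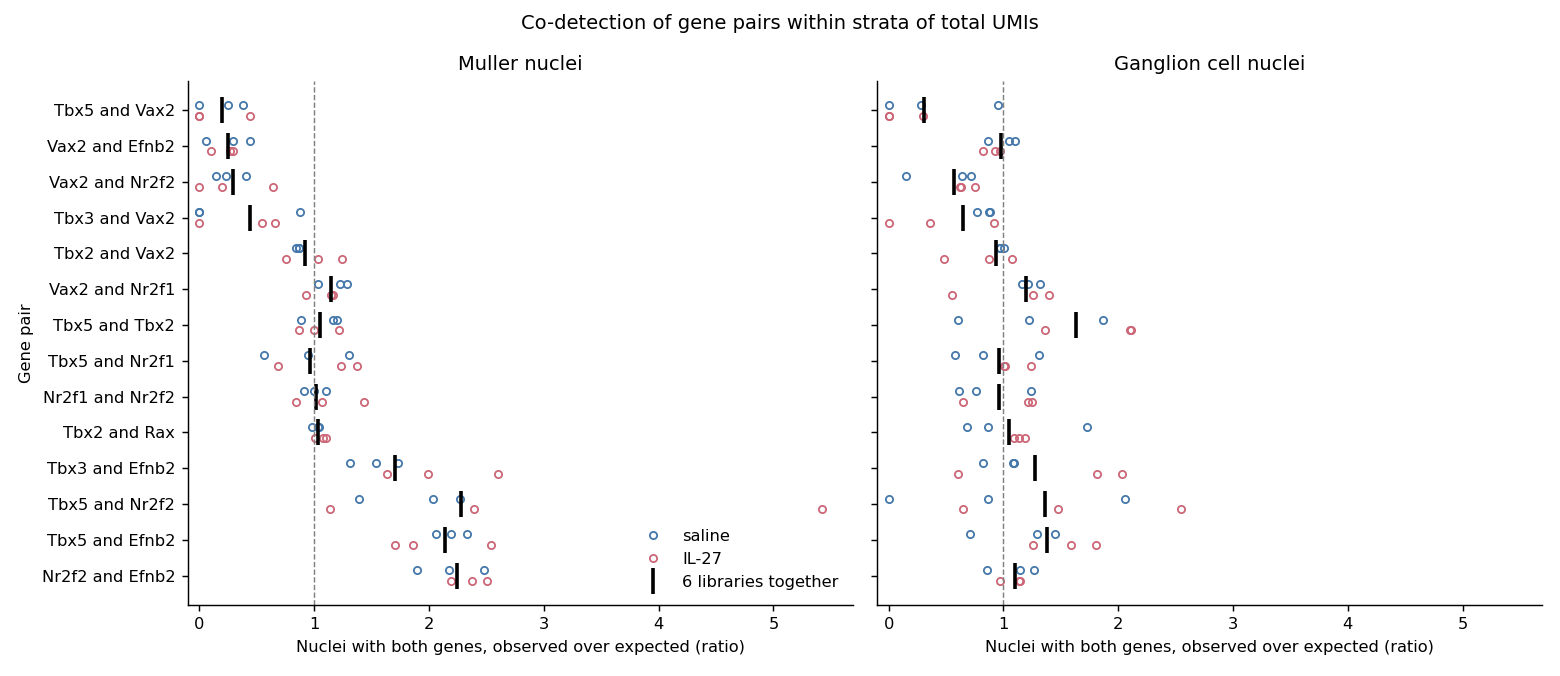
Nuclei with both genes of a pair, observed over expected (x axis, ratio; dashed line at 1), for 14 pairs (y axis) in Muller nuclei and ganglion cell nuclei; circles are libraries and bars the 6 libraries together. In Muller nuclei the Vax2 pairs with Tbx5, Efnb2, Nr2f2 and Tbx3 lie left of 1, and those of Efnb2 with Nr2f2 and Tbx5 right of 1.

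In ganglion cell nuclei, Vax2 was apart from Tbx5, Nr2f2 and Tbx3, while Vax2 and Efnb2 shared a number of nuclei close to the expectation. Tbx5 and Vax2 shared 8 ganglion cell nuclei against 25.8 expected (odds ratio 0.23), and Vax2 and Nr2f2 shared 20 against 34.8 (0.47), both below 1 in all 6 libraries. Tbx3 and Vax2 shared 9 against 13.8 (0.54), also below 1 in all 6. Vax2 and Efnb2 shared 102 nuclei against 104 expected, an odds ratio of 0.96. The only pair above 1 in all 6 libraries was Nr2f2 with Rax (17 nuclei against 7.93 expected), of which Rax was at background.

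The log2 odds ratio of each pair was compared between Muller and ganglion cell nuclei of the same library for the 18 pairs that both classes could give. For Vax2 and Efnb2 the mean difference, Muller minus ganglion, was -2.69 (SD 1.14) and lower in 6 of 6 libraries (exact paired permutation test, p = 0.03125, the smallest that 6 libraries allow, adjusted p = 0.188). For Nr2f2 and Efnb2 it was higher in Muller nuclei by 1.90 (SD 0.298) in 6 of 6 libraries, with the same p of 0.03125 by exact permutation and adjusted p of 0.188. Nr2f2 and Rax had the same p and adjusted p by this exact permutation test, at -1.23 (SD 0.698) and lower in Muller nuclei in 6 of 6 libraries, with Rax at background in ganglion cell nuclei. None of these 3 differences passed the correction over the 18 pairs. With only 3 pairs at the smallest possible p, that correction could not fall under 0.05, so it decides nothing about them. Cones gave 6 pairs with at least 5 expected nuclei, and none was on the same side of 1 in all 6 libraries.

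The same question was then put to all genes by comparing Muller nuclei with and without a Tbx5 UMI, in 201 nuclei on each side matched within library and total UMIs, with the library as a block in edgeR's quasi-likelihood test. Efnb2 rose 1.92 on the log2 scale (SE 0.31, Benjamini-Hochberg adjusted p = 0.00397). It had 58, 53 and 25 UMIs in Tbx5-positive saline nuclei and 9, 15 and 13 in their Tbx5-negative partners. In IL-27 it had 62, 38 and 14 UMIs against 6, 3 and 9. All 6 libraries were higher on the Tbx5 side. The same nuclei and UMIs had given the co-detection above, so for the members this split is no independent result.

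Beside Tbx5, 3 members passed the filter on low counts, and Efnb2 was the 1 that was called. Of the 3405 genes tested, 0.94% were called (32 genes, 21 higher and 11 lower). Efnb2 averaged 210 CPM with Tbx5 and 51.5 CPM without. All its Tbx5-positive sums were over the 10 counts of the filter, but several Tbx5-negative sums were under. It thus passed the filter through its higher side. Its adjusted p and the called share are therefore no fair measure of Efnb2 against other genes, and its values are read as a description. Tbx2 (log2 fold change 0.09, SE 0.20) and Rax (-0.14, SE 0.20) did not pass the test. The split used a UMI of Tbx5, so Tbx5 is not counted. Without the filter, where 1.03% of genes were called, Nr2f2 was also called at 1.67 (edgeR adjusted p = 0.00711), with 61 UMIs against 16 and higher in 6 of 6 libraries. Vax2 had 4 UMIs on the Tbx5 side against 26 (log2 fold change -2.68, edgeR adjusted p = 0.0196 without the filter).

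Of the other dorsal genes listed (Bmp4, Bmpr1b, Efnb1, Aldh1a1, Bambi, Thrb and Opn1mw), 3 of 7 were tested and none was called. Aldh1a1, the dorsal retinaldehyde dehydrogenase, had 230 UMIs against 126 and was higher in 6 of 6 libraries (log2 fold change 0.63, edgeR adjusted p = 0.121). Thrb, a thyroid hormone receptor, was at 0.56 (adjusted p = 0.158, edgeR). Bmpr1b, a BMP receptor listed as dorsal, had the other sign, at -0.49 (edgeR adjusted p = 0.151). Without the filter Cyp26b1, which breaks down retinoic acid, was called at 2.61 with 43 UMIs against 6 (edgeR adjusted p = 0.000605). The listed ventral, nasal and temporal, and retinoic acid genes had no call with the filter (2 of 7, 3 of 8 and 2 of 6 tested).

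Genes outside the lists were named by the smallest adjusted p. Zfp804b (0.87) and the noncoding Gm29683 (2.16) were higher in Tbx5-positive Muller nuclei, and the BMP and TGF-beta feedback gene Pmepa1 stood at 0.91. Vax2os, the antisense neighbour of Vax2, fell by 2.17, and the glial water channel Aqp4 fell by 0.75 on the log2 scale, a call that DESeq2 did not make (adjusted p = 0.0821). Kcnip4 (2.52), a channel-interacting protein of neurons, was called here but stood at -0.20 (edgeR adjusted p = 0.818) in Abca8a nuclei that also lay in Muller-like clusters, and at 1.27 (adjusted p = 0.391) with another draw of the matched nuclei. Another draw left 15 called genes in place of 32, among them Efnb2 (1.33, edgeR adjusted p = 0.0279), Zfp804b, Gm29683 and Aqp4, but not Pmepa1 (0.82, adjusted p = 0.124).

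The reverse comparison, 425 Muller nuclei with and 425 without a Vax2 UMI, gave the opposite sign for Efnb2. Efnb2 fell by 2.62 on the log2 scale (SE 0.30, edgeR adjusted p = 0.000303). It had 6, 1 and 8 UMIs in Vax2-positive saline nuclei against 38, 54 and 31 in their partners. In IL-27 it had 5, 6 and 6 against 21, 28 and 21, and all 6 libraries were lower on the Vax2 side. This split also reused nuclei and UMIs of the co-detection, and is no independent result for the members.

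Beside Vax2, 4 members were tested, and only Efnb2 was called. Of 6403 genes, 0.312% were called (20 genes, 7 higher and 13 lower). Efnb2 averaged 12.9 CPM with Vax2 and 75.8 CPM without. All its sums without Vax2 were over the 10 counts of the filter, and all its Vax2-positive sums were under. The side without Vax2 thus carried it past the filter. Here too its adjusted p and the called share are no fair measure of Efnb2 against other genes, and its values are read as a description. Tbx2 (log2 fold change -0.12, SE 0.16), Nr2f1 (0.20, SE 0.20) and Rax (-0.08, SE 0.13) did not pass the test. Without the filter, where 0.75% of genes were called, Nr2f2 was called at -2.10 (edgeR adjusted p = 0.000815), with 12 UMIs against 52 and lower in 5 of 6 libraries, IL-27 replicate 4 being the exception with 4 against 2. Aldh1a1 was at -0.70 (edgeR adjusted p = 0.0821), with 195 UMIs against 301 and lower in 6 of 6 libraries. Bmpr1b was at 0.38 (edgeR adjusted p = 0.206) and Thrb at -0.05 (adjusted p = 0.954). Of the ventral genes listed, Chrdl1 was lower on the Vax2 side (-0.33, edgeR adjusted p = 0.272) and Ephb2 higher (0.30, adjusted p = 0.585). With the filter no listed gene was called. Tested were 3 of 7 dorsal, 2 of 7 ventral, 5 of 8 nasal and temporal, and 2 of 6 retinoic acid genes.

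Gm29683 (fell by 3.58), Pmepa1 (fell by 0.80) and Shroom3 (fell by 1.03), a cytoskeletal regulator of cell shape, were lower in Vax2-positive Muller nuclei. Tenm3 (0.76), a teneurin adhesion protein of retinal wiring, and Vax2os (0.89) were higher. Vax2os overlaps Vax2, the gene that made the split, by 938 bases on the opposite strand. Its reads there may not be separable from those that sorted the nuclei. The interferon-induced genes Rsad2 (1.34) and Iigp1 (1.18) were also higher, and lost the call where nuclei were not matched on total UMIs (edgeR adjusted p = 0.105 and 0.138). DESeq2 did not call Vax2os (adjusted p = 0.152) or Iigp1 (adjusted p = 0.270). Tenm2 (0.82) was called here but stood at -0.11 (edgeR adjusted p = 0.850) within Muller-like clusters. With saline libraries alone Efnb2 did not pass the test on the Tbx5 split (1.61, edgeR adjusted p = 0.0972) or the Vax2 split (-3.11, adjusted p = 0.220), while with IL-27 libraries alone it did (2.36 and -2.05, edgeR adjusted p = 0.0238 and 2.62e-05). Whether the 2 treatments differed in this was not tested.

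**Figure D4:**
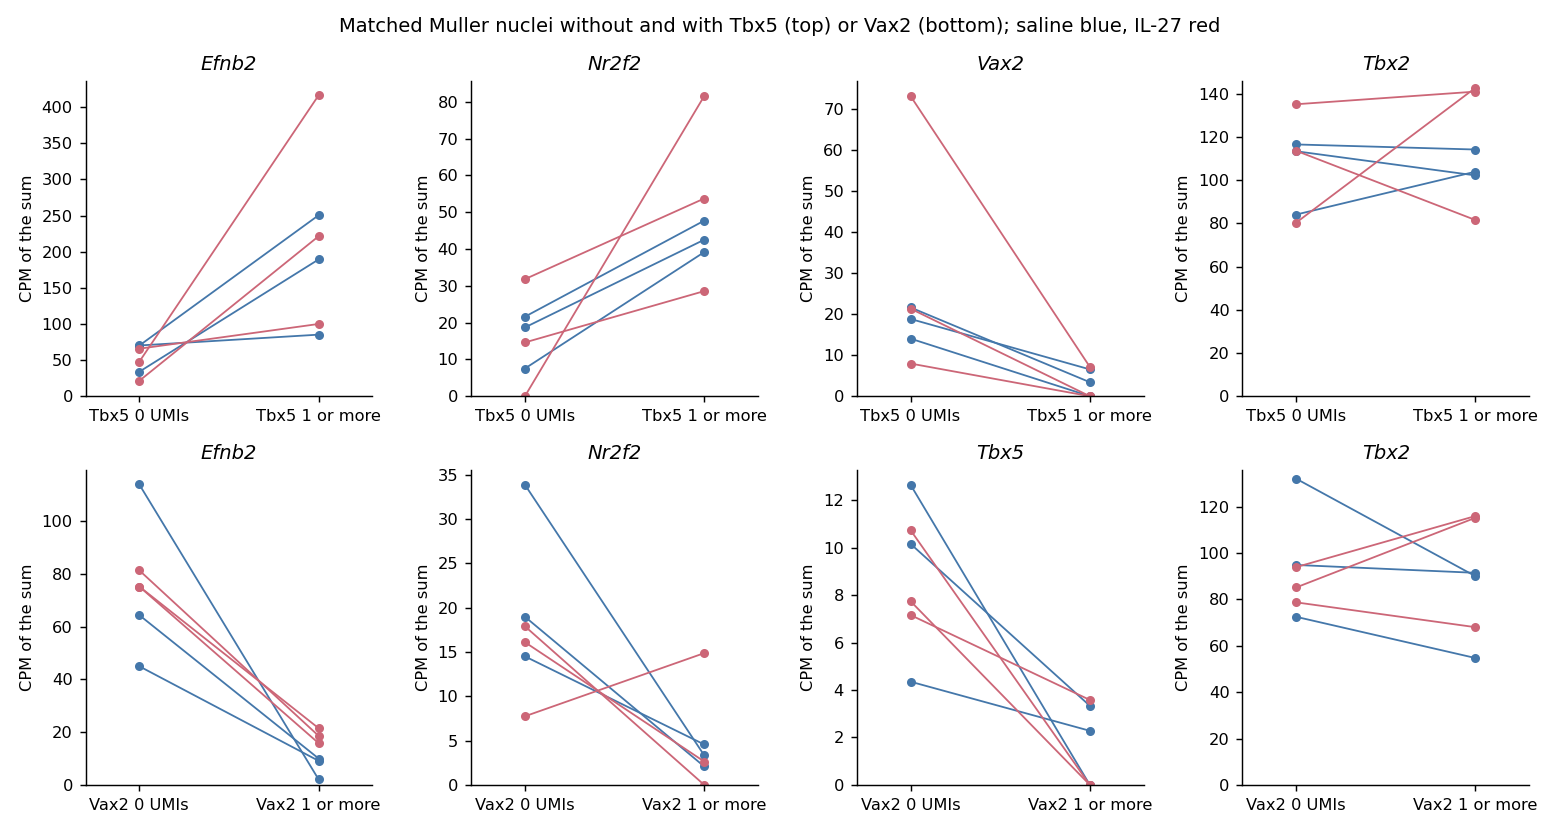
CPM of the summed, matched Muller nuclei without and with a UMI of Tbx5 (top row) or Vax2 (bottom row) for 4 members each, 1 line per library (saline blue, IL-27 red; y axes start at 0). Efnb2 lines climb in all 6 libraries in the top row and drop in all 6 in the bottom row, while Tbx2 lines go both ways.

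Ganglion cell nuclei with Tbx5 and without Vax2 were set against those with Vax2 and without Tbx5, 122 on each side. No member beyond the 2 that made the split passed the filter, and 0.138% of 4356 genes were called (6 genes). Without the filter, where 0.231% of genes were called, Tbx2 was at 1.40 (57 UMIs against 21, edgeR adjusted p = 0.0859) and Efnb2 at 0.89 (93 against 50, edgeR adjusted p = 0.312). Neither was called, and both had more CPM on the Tbx5 side in 6 of 6 libraries.

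All 6 called genes lay outside the patterning lists. Fstl4 rose 3.11 (SE 0.18, edgeR adjusted p = 1.84e-08), and the adhesion receptor Adgrl2 (2.12) and the noncoding Gm30382 (3.09) and Mir670hg (1.20) also rose on the Tbx5 side. Tenm3 (log2 fold change -1.33, SE 0.18, edgeR adjusted p = 0.00107) and D130079A08Rik (-0.66) were higher on the Vax2 side. Mir670hg lost the call where nuclei were not matched on total UMIs (edgeR adjusted p = 0.0779). Tenm3 was therefore higher on the Vax2 side in both Muller and ganglion cell nuclei.

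Cones were split by their opsins, whose gradients follow position in mice, though position itself was not measured. Cones with more Opn1mw than Opn1sw UMIs (M-leaning) numbered 2327, those with the reverse (S-leaning) 547, and 459 were tied. In 547 matched cones a side, 6.73% of 4579 genes were called (174 higher and 134 lower in M-leaning cones). Rax was the 1 member that passed the filter, with 128 UMIs against 123 and a log2 fold change of 0.09 (SE 0.20, edgeR adjusted p = 0.915).

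Nr2f2 was the exception among the members too low to pass the filter. It had 6, 9 and 3 UMIs in M-leaning saline cones against 5, 1 and 1 in S-leaning ones, and 6, 5 and 4 against 0, 0 and 1 in IL-27, 33 against 8 in all. Without the filter, where 1.51% of genes were called, it was called at 2.04 (edgeR adjusted p = 0.0115), higher in 6 of 6 libraries. B130024G19Rik, which overlaps it on the opposite strand by 1826 bases, was called at 2.03 (344 against 87.1 CPM, edgeR adjusted p = 7.69e-28), and reads of the 2 genes may not be separable in that overlap. Vax2 had 24 UMIs in M-leaning and 35 in S-leaning cones and was not called without the filter (-0.52, edgeR adjusted p = 0.955).

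Beside the members, Thrb, the thyroid hormone receptor needed for M opsin, rose 0.46 (edgeR adjusted p = 1.19e-08) and Epha5, a receptor for A-type ephrins, rose 1.28 (edgeR adjusted p = 1.34e-08) in M-leaning cones. Among genes named by adjusted p, the cone arrestin Arr3 (1.14) was higher and the synaptic Nrxn3 (fell by 2.65), Tenm3 (fell by 1.62) and the arrestin Sag (fell by 0.54) were lower. Ccdc136 (fell by 1.36) lies 7840 bases from Opn1sw with no gene between, and so stands next to an opsin used to sort the cones.

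Treatment was compared over the 3 saline and 3 IL-27 libraries. No member was called in Muller nuclei (9 tested), cones (4 tested) or ganglion cell nuclei (8 tested), where 0.059%, 0.0% and 0.0% of 13555, 10719 and 13789 genes were called. In cones and ganglion cell nuclei, where edgeR called 0 genes, 392 and 455 had an unadjusted p under 0.05, and DESeq2 also called 0, with 122 and 163. The median log2 fold change of the members was -0.07 in Muller nuclei, beside 0.0014 over all genes. It was -0.27 in cones (0.0056 over all genes) and -0.07 in ganglion cell nuclei (0.00012 over all genes).

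In Muller nuclei the member nearest to the threshold was Nr2f1, at 53.5, 59.4 and 42.9 CPM in saline and 46.5, 51.2 and 32.3 CPM in IL-27, which overlapped (log2 fold change -0.33, SE 0.17, edgeR adjusted p = 0.984). Efnb2 was at 68.3, 99.3 and 51.1 CPM in saline and 93.9, 92.4 and 67.3 CPM in IL-27 (0.11, SE 0.21, edgeR adjusted p = 0.994). For Rax the interval of ±2 SE ran from -0.17 to 0.25 and for Tbx2 from -0.21 to 0.28, whereas for Tbx3 it ran from -0.85 to 0.63. Fewer nuclei of a position and less RNA in each cannot be told apart in such sums.

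Vax2 was lower in the IL-27 libraries in all 3 classes when counted as a share of nuclei. In ganglion cell nuclei it was detected in 17.8%, 20.8% and 17.9% of saline and 14.8%, 14.6% and 13.7% of IL-27 nuclei (18.8 ± 1.70 against 14.4 ± 0.618, mean ± SD, n = 3 each, exact permutation p = 0.1). In cones it was detected in 3.88%, 5.54% and 4.62% of saline and 1.95%, 3.06% and 3.23% of IL-27 nuclei, again without overlap (exact permutation p = 0.1). A two-sided test of 3 against 3 libraries cannot go below 0.1. The summed counts gave log2 fold changes of -0.32 (SE 0.16, edgeR adjusted p = 0.99996) in ganglion cell nuclei, -0.54 (SE 0.31, adjusted p = 0.99967) in cones and -0.07 (SE 0.14, adjusted p = 0.995) in Muller nuclei.

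With Tbx2 in cones, 4 of the 27 shares of members did not overlap between treatments, all 4 lower in IL-27. They were 1 of 9 in Muller nuclei, 2 of 9 in cones and 1 of 9 in ganglion cell nuclei. The same was true of 16.3% of all tested genes in Muller nuclei, 14.9% in cones and 5.29% in ganglion cell nuclei, so none of these counts stands apart from the background. Median UMIs per Muller nucleus were 4891, 4707 and 4449 in saline and 4274, 4522 and 4548 in IL-27, and 10201, 10705 and 8754 against 9811.5, 9663 and 10674 in ganglion cell nuclei. At 1000 UMIs per nucleus the Vax2 groups overlapped in Muller nuclei and cones. They did not overlap in ganglion cell nuclei (2.27% ± 0.171 in saline against 1.53% ± 0.317 in IL-27, n = 3 each). That last result rested on 42 nuclei with Vax2 over all libraries, and the share over all genes was not counted at this depth.

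Whether the libraries held the same mix of dorsal and ventral glia was asked from the Muller nuclei with a UMI of Tbx5 or Vax2 but not both. Of these 618 nuclei, 197 had Tbx5 and 421 Vax2. The Tbx5 share was 31.6%, 35.6% and 27.5% in saline and 34.6%, 27.2% and 36.5% in IL-27 (31.6% ± 4.05 against 32.8% ± 4.93, n = 3 each, exact permutation p = 0.8). The difference of 1.19 percentage points was smaller than either SD.

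In ganglion cell nuclei the Tbx5 share was 29.5%, 19.4% and 20.7% in saline and 28.6%, 28.4% and 31.1% in IL-27 (23.2% ± 5.46 against 29.4% ± 1.53, n = 3 each, exact permutation p = 0.3), with saline replicate 1 among the IL-27 values. In amacrine nuclei, a class with more nuclei, the means were 29.2% ± 5.34 and 29.9% ± 3.14 (exact permutation p = 0.8, n = 3 each). Among cones, the M-leaning share was 80%, 80.2% and 72.9% in saline and 85.8%, 84.8% and 81.4% in IL-27, without overlap (77.7% ± 4.14 against 84.0% ± 2.30, n = 3 each, exact permutation p = 0.1). The difference of 6.28 percentage points was 3.89 without saline replicate 6. Tied cones, which were left out, numbered 148 of 555 in IL-27 replicate 5 and 51 to 76 in the other libraries. None of these shares could reach 0.05 with 3 libraries a group.

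**Figure D5:**
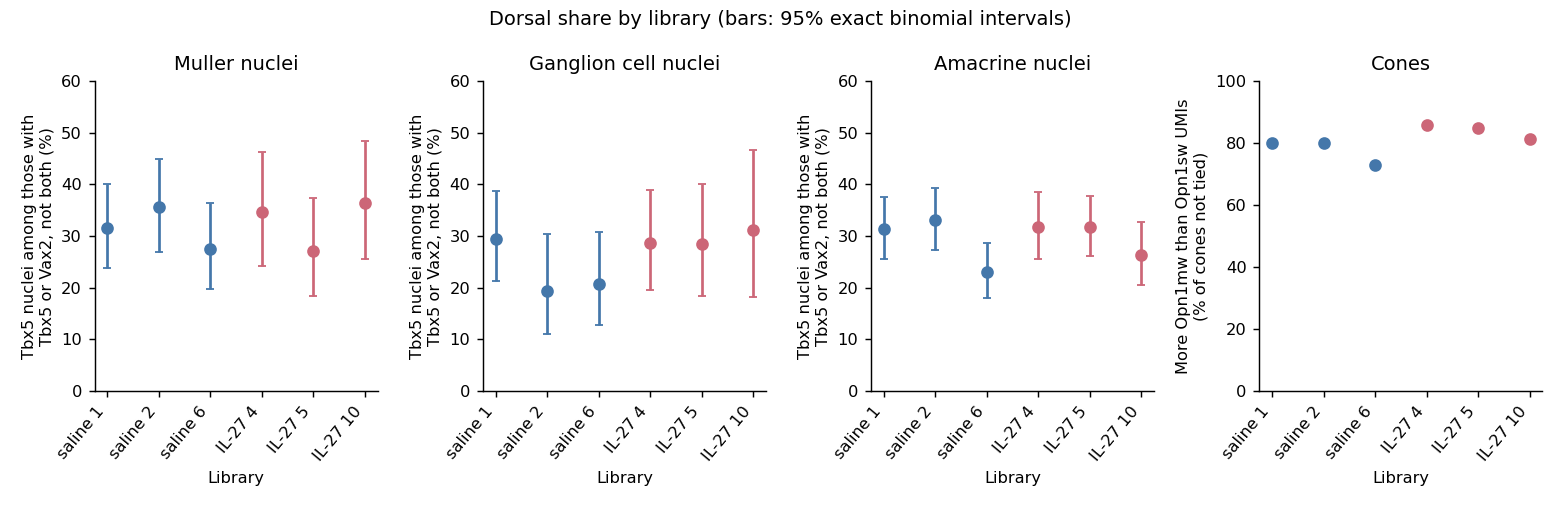
Share of nuclei with Tbx5 among those with Tbx5 or Vax2 but not both (y axis, %), per library (x axis; saline blue, IL-27 red; bars are 95% exact binomial intervals for counting error), and in the right panel the share of M-leaning cones, without intervals. Muller and amacrine shares overlap between treatments, and the 3 IL-27 cone shares lie above the 3 saline ones.

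The co-detection pattern was also compared between treatments. Of the 28 pairs in Muller nuclei that every library could give, 1 (Tbx5 and Tbx3) reached the smallest exact permutation p of 0.1 (3 against 3 libraries), and of 20 in ganglion cell nuclei the smallest p was 0.2. For Nr2f2 and Efnb2 the odds ratio was above 3 in every library of both treatments. The other patterning lists had no gene called between treatments in any of the 3 classes.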

How the data were processed

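Nuclei were isolated from flash-frozen retinas and sequenced with a droplet 3′ kit. The deposited files hold whole-number UMI counts per gene and barcode, which the authors made with Cell Ranger (8.0.1 in the file headers, 9.0.1 in the submitters' processing notes, which also name Seurat 5.2.1). The genome build and the strand setting of the counting are not given in the sources used here. Of 32285 gene IDs, 32158 (99.6%) were found in GENCODE M21 (GRCm38), which gave positions.

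From these counts, nuclei needed over 500 UMIs, 200 or more genes and a mitochondrial share below 5%. Doublets were removed at an expected rate of 8%. Clustering used 2000 variable genes, 25 components, 20 neighbours and Louvain resolution 0.25 (scanpy 1.11.5, igraph 0.11.9), without the members or list genes, and clusters were named from fixed markers. Sums per library and class left out nuclei whose log2 total lay more than 2 MADs (median absolute deviations) from its class median and were tested with edgeR 4.0.16 (quasi-likelihood, TMM, filterByExpr at 10 counts, R 4.3.3) at a Benjamini-Hochberg adjusted p under 0.05. DESeq2 1.42.0 was an alternative. Split nuclei were matched 1 to 1 within library and 10 bins of total UMIs, with the library as a block. Shares were compared by two-sided exact permutation over libraries (scipy 1.17.1). Intervals are exact binomial at 95% and cover counting error only.

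Named genes were the 9 members, the genes of 4 patterning lists and, in each split, at most 8 others each way, ranked by adjusted p, with 1 sign in 6 libraries. An item that this rule names is not reported here. Members, lists and tests were chosen with earlier results of these data known. Muller nuclei restricted to Muller-like clusters, the comparison of odds ratios between classes and the opsin shares with a library left out were added after the data were seen. The edgeR tests were also run on simulated counts in which 200 genes changed by 1.5 on the log2 scale. Of these, 93.5% to 100% were recovered, with 9 to 13 false calls per comparison. The simulation drew each sum independently, with its real size and the spread estimated for each gene. It held no shift shared by both sums of a library, and no sorting of nuclei by a gene. It therefore does not check the splits in these respects.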

Additional observations from a re-analysis of the deposited data

Results flagged for a closer look

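Of 27 groups of 6 libraries examined for a library far from the rest, 3 had one, where chance flags about 1 in 20. The values are log2 ratios of CPM + 10 between the sides of a split. Nr2f2 in Muller nuclei with against without Tbx5 was at 3.19 in IL-27 replicate 5 (14 UMIs against 0), and at 0.61 to 1.49 in the other libraries. Efnb2 in Muller nuclei with against without Vax2 was at -3.36 in saline replicate 2 (1 UMI against 54), and at -1.89 to -1.44 in the others. Without saline replicate 2 its fitted log2 fold change was -2.24 (edgeR adjusted p = 0.000375). Tbx2 in ganglion cell nuclei with Tbx5 against Vax2 was at 0.037 in saline replicate 6 (2 UMIs against 2), and at 0.90 to 1.36 in the others.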

How the results depend on the processing

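No paired analysis was possible because the saline and IL-27 libraries share no replicate numbers, and the splits of nuclei already had the library as a block. Called genes between treatments in Muller nuclei numbered 8, and 22 with DESeq2, 145 with no filter on low counts, 0 with all retained nuclei, 0 and 4 with at least 1 and 3 UMIs of Abca8a, 4 in Muller-like clusters, 5 without the saline-enriched cluster, 0 with doublets kept, 19 for Abca8a nuclei inside Muller-like clusters and 0 to 11 with a library left out. The 0 calls became 10 in cones and 17 in ganglion cell nuclei with no filter, and 0 to 4 in cones with a library left out.

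The Tbx5 split gave 32 calls, and 13 with DESeq2, 198 with no filter, 7 with saline libraries only, 15 with another draw and 15 to 42 with a library left out. The Vax2 split gave 20, and 159 with no filter, 0 and 86 with saline and IL-27 libraries only, 68 with another draw, 32 with no matching, 52 inside Muller-like clusters and 12 to 61 with a library left out. The opsin split of cones gave 308, and 112 with DESeq2, 144 and 117 with saline and IL-27 libraries only and 464 with no matching. The ganglion cell split gave 6, and 46 with no filter, 13 with IL-27 libraries only, 13 with another draw, 27 with no matching and 4 to 10 with a library left out. The cause of these changes was not tested, apart from the fewer samples or genes that a setting itself brings.

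Member shares without overlap numbered 4, and 2 with doublets kept and 4 to 9 with a library left out. The share over all genes was not counted in these other settings, and groups with fewer libraries separate more easily. These counts are therefore not read as a difference between treatments. The difference in Tbx5 share of Muller nuclei, 1.19 percentage points, became -1.45 inside Muller-like clusters, -0.847 when saline replicate 6 was left out and -0.676 when IL-27 replicate 10 was, within -0.847 to 3.98 over the libraries left out. Efnb2 stayed past the threshold with each library left out, at 1.69 to 2.25 on the Tbx5 split and -2.77 to -2.24 on the Vax2 split. These fits used the same filter, so the limit given above for Efnb2 holds for them too. The sparse counts of Tbx5, Tbx3 and Foxd1 limit what can be seen of them.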
